A study of Solanum lycopersicum with 120 samples.

Results

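The late genes of the anthocyanin pathway were followed in tomato (*Solanum lycopersicum*) seedlings under a low red to far-red light ratio (low R/FR). The set has 10 genes, taken by identifier from the 34075 genes listed in both count tables, by what the genes encode. Anthocyanins are the red, purple and blue pigments of plants, kept in the vacuole. Early enzymes of flavonoid synthesis make dihydroflavonols, which are shared with other flavonoids, and the late genes turn them into coloured, sugar-bearing pigment and carry it to the vacuole. In tomato seedlings the pigment is best known from the purple hypocotyl, and in several plants shade and low R/FR are known to lower it. Phytochrome-interacting factors (PIFs) are transcription factors that accumulate when phytochrome is turned to its inactive form, as happens in far-red-rich light.

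The 10 genes fall into steps. *F3'5'H* (Solyc11g066580) encodes the flavonoid 3',5'-hydroxylase that sets the number of hydroxyl groups on the B ring. *DFR* (Solyc02g085020), dihydroflavonol 4-reductase, takes the first step that commits the precursor to the coloured branch, and *ANS* (Solyc08g080040), anthocyanidin synthase, makes the coloured anthocyanidin. Decoration with sugars is assigned to *3-GT* (Solyc10g083440), a 3-glucosyltransferase, to *RT* (Solyc09g059170), a rhamnosyltransferase, and to *5-GT* (Solyc12g098590), a 5-glucosyltransferase. An acyltransferase, *AAC* (Solyc12g088170), and an O-methyltransferase, *OMT* (Solyc09g082660), add acyl and methyl groups. *GST* (Solyc02g081340), a glutathione S-transferase, and the permease *PAT* (Solyc03g025190) are assigned to transport into the vacuole. The study's annotation describes *3-GT* and *RT* only as glycosyltransferases, *GST* only as a glutathione S-transferase and *OMT* as a caffeoyl-CoA O-methyltransferase, so their place in the pathway is that given by the gene set. A neighbouring gene, Solyc12g098600, carries the same product name as *5-GT*, and reads that fit more than 1 place were not counted, so the level of *5-GT* is uncertain.

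All plants were of the M82 cultivar, which carries the *sp* mutation, and were 12 days old when the treatment began. They were grown in long days of white light at a constant 24 °C and about 200 µmol m-2 s-1 (24WL), and were either left there or moved, 2 h after lights came on, to white light of the same intensity with added far-red at an R/FR of 0.6 (24FR), given in the daytime only. WT was sampled in both lights after 3 h, 6 h and 24 h, which are 5, 8 and 2 h after lights on (ZT5, ZT8 and ZT2 of the next day). The single mutant *slpif8a* and the quadruple mutant *slpifq* (*slpif4 slpif7a slpif7b slpif8a*), both made by CRISPR and free of Cas9, were sampled after 6 h. Cotyledons, first leaf, hypocotyl and epicotyl were taken separately, with 3 libraries a group and 4 pooled seedlings a library, which gives 120 libraries in 40 groups. The p-values rest on the spread between such pools, estimated for each gene over all 72 libraries of a table. That estimate draws on the other organs and is not that of the compared groups alone. The counts come in a table of the WT time course and a table of the 3 genotypes at 6 h, with 72 libraries each. The 24 libraries of WT at 6 h belong to both, and each table was scaled on its own, so their levels differ slightly between the tables.

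The libraries held 15905765 to 33913236 reads assigned to genes. A count of 3 in a library, used as the detection floor, equalled 0.071 to 0.222 CPM, which is the count scaled to the effective size of its library. A gene was tested if it exceeded 5 CPM in at least 3 libraries, which left 17469 genes in the time course and 17460 in the genotype table, and all 10 late genes were among them in both. *SlATHB2*, a gene known to respond to low R/FR, was higher in 24FR in every WT organ and time, by 2.61 to 4.08 on the log2 scale. The gene targeted in both mutants, SlPIF8a, stayed transcribed, with 309, 315 and 289 CPM in 24WL cotyledons of WT, 243, 199 and 186 CPM in the single mutant, and 217, 236 and 192 CPM in the quadruple mutant. Its difference from WT ran from -0.74 to 0.56 over organs and lights and was not called (the thresholds are given with the first comparison), which is no check of an allele that alters only the protein. Of the other targeted genes, SlPIF7b was called higher in *slpif8a* than in WT in 24FR cotyledons (1.92, SE 0.38, adjusted p = 0.0024, edgeR's quasi-likelihood test), and no other difference of a mutant from WT in the same light was called for them. Of the organ markers, the small-subunit gene *RBCS* a ran from 13800 to 19100 CPM in first leaf and 502 to 817 in hypocotyl of 24WL plants, and the stem meristem gene *TKN2* from 5.05 to 8.45 and 28.1 to 43.5. In WT, no tested leaf, stem or xylem marker (6 of the 8 listed, since *RBCS* b and d were at or near 0) was called different between the lights at any time. Of the 72 marker tests, 15 passed the adjusted p but stayed under the fold threshold (-0.80 to 0.32), and 9 of these were at 24 h, among them RBCS a in cotyledons (-0.74, adjusted p = 4.15e-07, edgeR's quasi-likelihood test). The part of these markers in the responses of the late genes was not tested. In whole organs, fewer cells of a type and less RNA per cell cannot be told apart.

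Whether low R/FR changed the late genes was asked first in WT. A gene was called when edgeR's quasi-likelihood test, adjusted over all genes tested, gave a p under 0.05 and the groups differed by more than 1 on the log2 scale. At 3 h, 24 of the 40 gene and organ pairs were called lower in 24FR. At 6 h the number was 39, and at 24 h it was again 39. No late gene was called higher at any time, a direction that held 0.819%, 0.492%, 0.71% and 0.429% of all tested genes in cotyledons, first leaf, hypocotyl and epicotyl at 3 h, 1.56%, 1.04%, 2% and 1.27% at 6 h and 1.59%, 0.607%, 2.06% and 2.6% at 24 h. The plot of every WT library shows the levels in both lights.

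**Figure D1:**
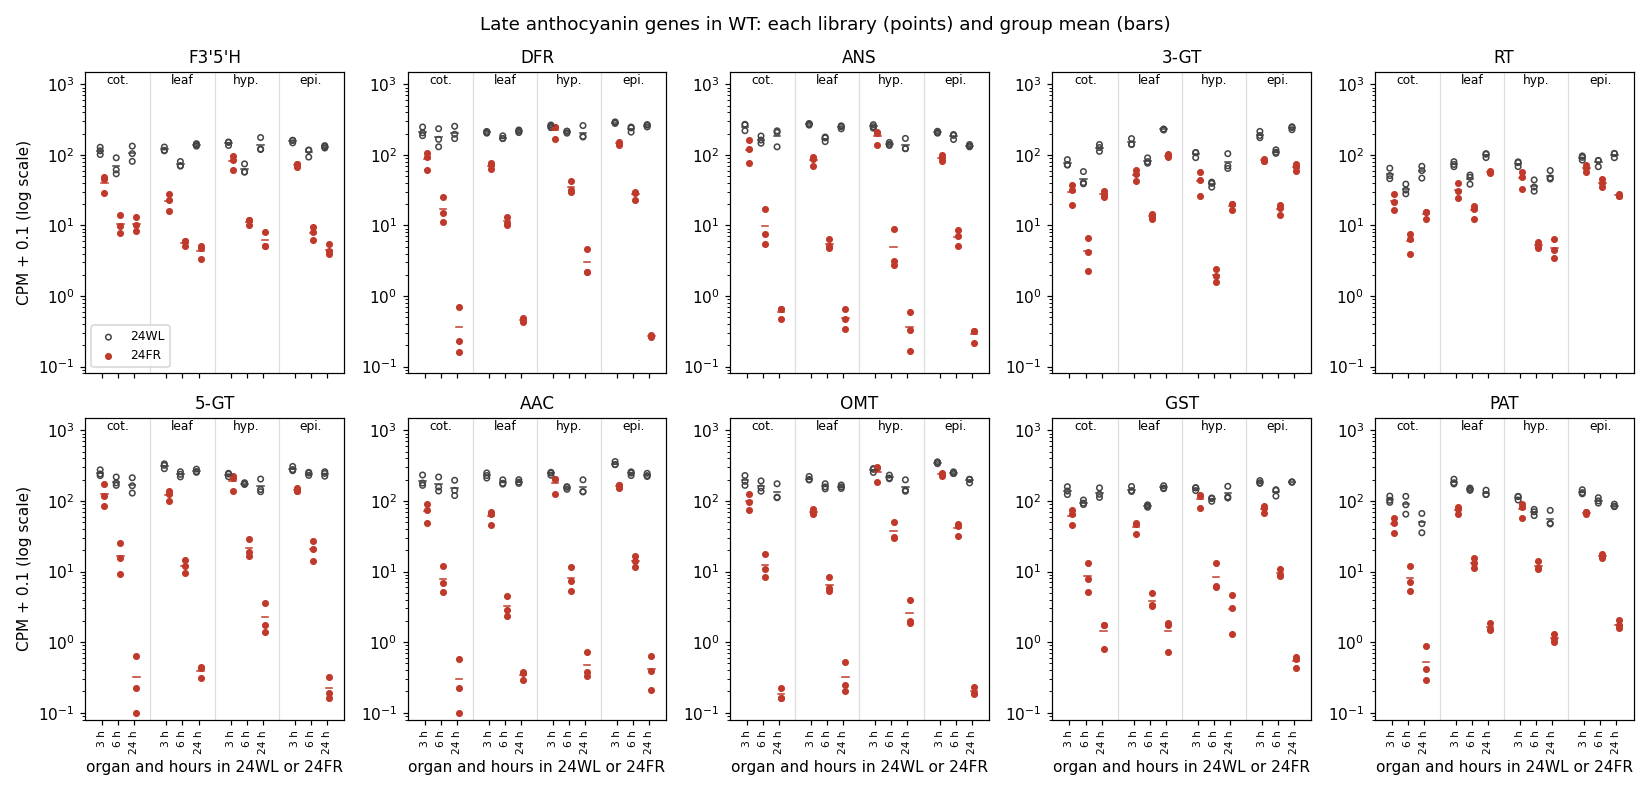
Level of each late anthocyanin gene (CPM + 0.1, log scale) in WT, by organ and hours of treatment. Points are single libraries of 24WL (open) and 24FR (filled) and short lines are means of 3. The 24FR points lie below the 24WL points, with exceptions in the hypocotyl at 3 h, and the distance is widest at 24 h for most genes.

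The response was visible at 3 h, with most calls in the leafy organs, though leafy and stem responses were not compared by a test. All 10 genes were called lower in first leaf, with a median log2 fold change of -1.57, where 0.212% of all tested genes were called lower. In cotyledons 8 genes were called (median -1.24, background 0.464%). The exceptions there, *5-GT* (-0.99, adjusted p = 0.00293 by edgeR's quasi-likelihood test) and *OMT* (-0.98, adjusted p = 0.000519), passed the test but not the fold threshold. In epicotyl 5 genes were called, *F3'5'H*, *ANS*, *3-GT*, *AAC* and *GST* (median of all 10 -1.03, background 0.286%). There *DFR* (-0.99), *5-GT* (-1) and *PAT* (-0.98) also passed the test but not the fold threshold. In hypocotyl 1 gene was called, *3-GT*, and the median was -0.47 (background 0.693%). *F3'5'H* (-0.85), *RT* (-0.7) and *PAT* (-0.55) passed the test alone in that organ. Leaving out 1 library moved the count in cotyledons between 5 and 10, in epicotyl between 5 and 7 and in hypocotyl between 1 and 2.

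The hydroxylase gene showed the largest early change. *F3'5'H* stood at 116, 114 and 129 CPM in 24WL first leaf and at 27.6, 23.1 and 16 CPM in 24FR at 3 h. The groups were far apart, and its log2 fold change was -2.43 (SE 0.21, adjusted p = 5.14e-13, edgeR's quasi-likelihood test, n = 3 per group). In the hypocotyl its levels were 152, 136 and 150 CPM against 97, 85.2 and 60.2 CPM, a fold change of -0.85 that stayed under the fold threshold. The lights did not overlap in either organ. Between cotyledons and first leaf the response of *F3'5'H* at 3 h did not differ by the test (-0.93, SE 0.28, adjusted p = 0.224, edgeR).

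In the 3 h hypocotyl most steps did not pass both thresholds. *3-GT* fell by 1.28 (SE 0.19, adjusted p = 2.29e-06, edgeR), from 108, 91.3 and 107 CPM to 56.2, 43.7 and 26.4 CPM. *DFR* read 265, 243 and 253 CPM in 24WL and 249, 248 and 169 CPM in 24FR. *OMT* read 280, 253 and 287 CPM against 295, 299 and 184 CPM. For both genes the lights overlapped, 1 of the 24FR libraries was low, and the fold changes of -0.19 (adjusted p = 0.584, edgeR) and -0.08 (adjusted p = 0.855) did not pass the test. In this organ 7 of the 10 genes had all 24FR libraries below all 24WL libraries, which held for 14% of all tested genes. In the other organs this held for all 10 genes at 3 h, where the background was 7.56% in cotyledons, 12.8% in first leaf and 11.2% in epicotyl.

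At 6 h the fall was deep in every organ. All 10 genes were called lower in cotyledons, first leaf and hypocotyl, with medians of -3.46, -4.13 and -2.94, against backgrounds of 1.52%, 1.21% and 2.47%. In epicotyl 9 were called (median -3.32, background 1.24%). The gene left out was *RT*, which stood at 82.8, 83.4 and 67.9 CPM in 24WL and 45.1, 39.8 and 35.1 CPM in 24FR. Its groups did not overlap, but its log2 fold change of -0.96 (SE 0.18, adjusted p = 7.08e-05, edgeR) was just under the fold threshold.

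The acyltransferase gene *AAC* had the largest 6 h change, in first leaf. It went from 178, 173 and 199 CPM in 24WL to 2.73, 4.36 and 2.22 CPM in 24FR, a log2 fold change of -5.86 (SE 0.29, adjusted p = 2.03e-22, edgeR). *ANS*, which makes the first coloured compound, had changes of -4.05 to -4.97 over the 4 organs. *3-GT* differed more between organs, from -2.62 in first leaf to -4.38 in hypocotyl, where 41, 34.8 and 39.3 CPM faced 2.3, 1.81 and 1.46 CPM. All 10 genes had non-overlapping lights in all 4 organs at 6 h, against backgrounds of 8.85%, 15.1%, 21.5% and 20.1% in cotyledons, first leaf, hypocotyl and epicotyl.

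The deepening from 3 h to 6 h was tested as a difference of responses. It was called (adjusted p under 0.05) for 10 genes in cotyledons, 8 in first leaf, 10 in hypocotyl and 9 in epicotyl, with medians of -2.29, -2.56, -2.62 and -2.33. Of all tested genes, 0.555%, 0.206%, 1.91% and 0.584% were called in that direction. The pairs not called were *3-GT* (-1.09, adjusted p = 0.0655, edgeR) and *RT* (-0.29, adjusted p = 0.893) in first leaf and *RT* in epicotyl (-0.47, adjusted p = 0.456). In cotyledons the count was 0 when fitted on the compared groups alone and 1 on the cotyledon libraries alone, and the cause of this was not tested. TKN2 was called the other way in cotyledons in this contrast (1.00), with 7.44 to 7.9 CPM in 24WL and 3.12 to 5.15 CPM in 24FR at 3 h, and its part was not tested.

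At 24 h the genes differed widely in the level left in 24FR. All 10 genes were called lower in cotyledons, hypocotyl and epicotyl (medians -7.68, -5.87 and -9.08, backgrounds 0.979%, 2.18% and 4.33%) and 9 in first leaf (-8.01, background 0.521%). The counts at 6 h and 24 h were the same under every other way of processing tried with all libraries in. The heat map of the fold changes and the plot of the share left set the genes side by side.

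**Figure D2:**
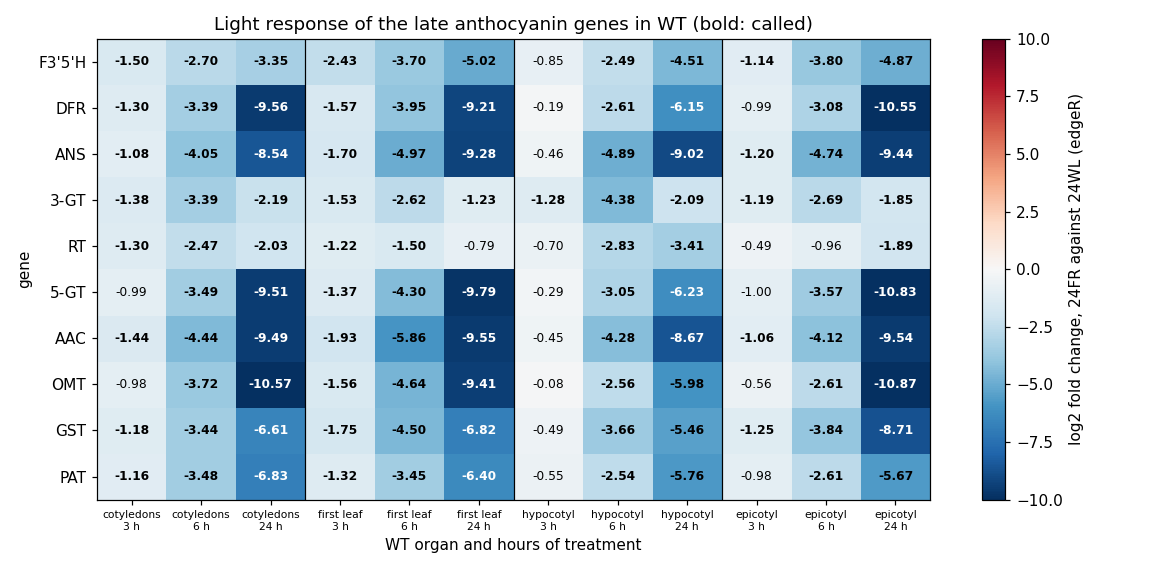
Log2 fold change between 24FR and 24WL (edgeR) in WT for each late gene (vertical axis) in each organ and time (horizontal axis), with called values in bold. The 24 h columns run from -0.79 for RT in first leaf to -10.87 for OMT in epicotyl.

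*DFR*, *ANS*, *5-GT*, *AAC* and *OMT* were near the floor in 24FR after 24 h in cotyledons, first leaf and epicotyl, with at most 0.263% of the pooled 24WL level left. In hypocotyl *ANS* and *AAC* were as low (0.188% and 0.243%), while *DFR* (1.4%), *5-GT* (1.33%) and *OMT* (1.59%) stayed above the floor. *DFR* in epicotyl stood at 249, 264 and 268 CPM in 24WL and at 0.178, 0.168 and 0.16 CPM in 24FR. *OMT* there stood at 180, 203 and 201 CPM against 0.0891, 0.0838 and 0.128 CPM. The lights were more than 3 orders of magnitude apart for both. With the counts of each group pooled, the level of *OMT* was 1960-fold higher in 24WL (95% exact interval 1070 to 4100), that of *5-GT* 1880-fold (1100 to 3540) and that of *DFR* 1550-fold (966 to 2660). Such intervals cover counting error only. The fitted log2 fold changes were -10.87, -10.83 and -10.55. In cotyledons *OMT* had counts of 1, 1 and 2 in the 24FR libraries, all under the floor, so its level there was at least 714-fold lower, which leaves at most 0.14% of the 24WL level.

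The same genes fell in the first leaf. *ANS* stood at 250, 234 and 258 CPM in 24WL and 0.369, 0.556 and 0.244 CPM in 24FR (-9.28, SE 0.42, adjusted p = 8.99e-25, edgeR). *AAC* went from 177, 185 and 200 CPM to 0.263, 0.278 and 0.195 CPM, which leaves 0.131% of its pooled level. Every 24FR library was near the floor and the 24WL libraries of each gene lay within a narrow range.

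*GST* and *PAT*, the transport genes, had a larger share of the pooled 24WL level left than any of those 5 genes in each organ, 0.236% to 2.28% for *GST* and 0.858% to 1.96% for *PAT*. *GST* stood at 149, 152 and 164 CPM in 24WL first leaf and 0.632, 1.76 and 1.66 CPM in 24FR at 24 h (-6.82, SE 0.33). *PAT* stood at 123, 123 and 142 CPM against 1.79, 1.39 and 1.42 CPM (-6.40, SE 0.26). Both were many-fold lower with no overlap. Over the 4 organs *GST* ran from -5.46 to -8.71 and *PAT* from -5.67 to -6.83.

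Of the sugar transferases, *3-GT* and *RT* stayed expressed at 24 h, with the largest share left in first leaf. *RT* was much lower in hypocotyl, where 9.38% of its pooled 24WL level was left (log2 fold change -3.41). *3-GT* in first leaf read 230, 232 and 225 CPM in 24WL and 95.5, 94.1 and 102 CPM in 24FR, so that 42.5% of its pooled 24WL level was left (2.35-fold, 2.28 to 2.43). *RT* in first leaf read 102, 91.4 and 104 CPM against 55, 57.1 and 59.2 CPM, so that 57.6% was left (1.74-fold, 1.66 to 1.81). The log2 fold change of *RT* there, -0.79 (SE 0.18, adjusted p = 0.00277, edgeR), made it the single gene not called at 24 h. *F3'5'H* lay between these groups within each organ, with -3.35 in cotyledons, where 9.72% was left, and -5.02 in first leaf, where 133, 139 and 144 CPM faced 4.95, 4.68 and 3.22 CPM.

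**Figure D3:**
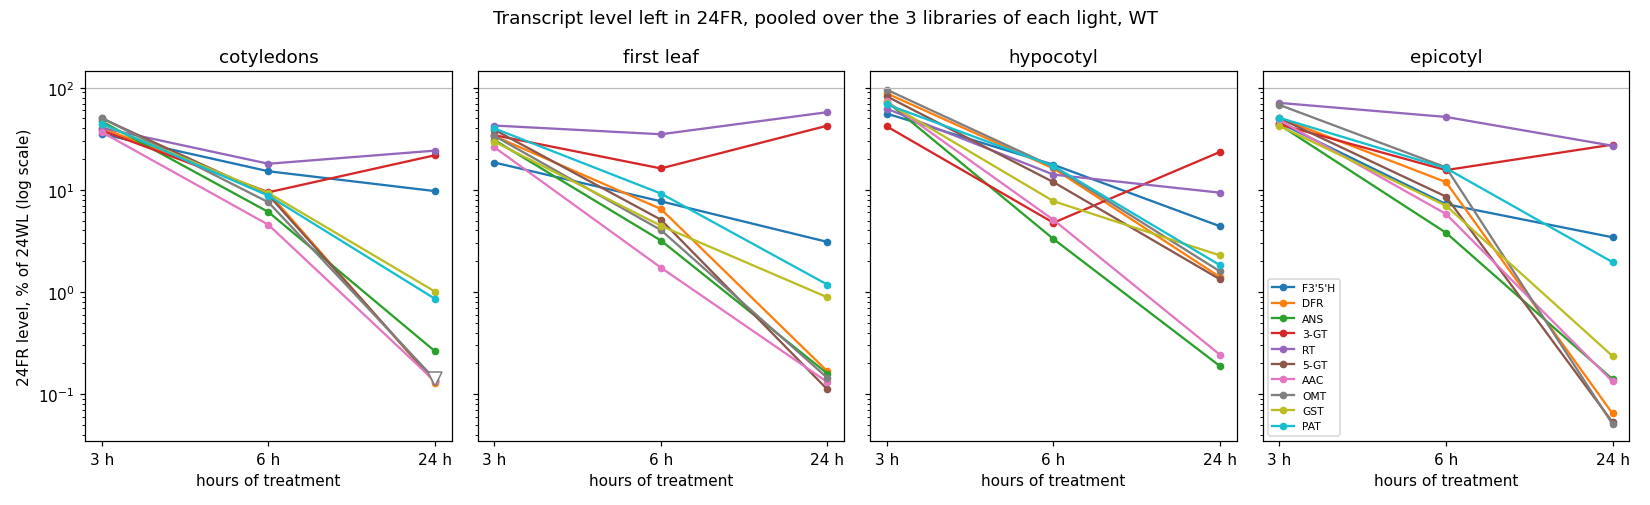
Share of the 24WL level left in 24FR in WT (percent, log scale) against hours of treatment, by gene and organ, from the pooled counts of 3 libraries a group; no error is drawn. After 24 h the share of 3-GT and RT in first leaf is 42.5% and 57.6%, while that of OMT, 5-GT and DFR in epicotyl is 0.0509%, 0.0531% and 0.0647%.

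The difference between the 24 h and 6 h responses separated *3-GT* from the rest. It was called in the lower direction for 7 genes in cotyledons, 8 in first leaf, 8 in hypocotyl and 9 in epicotyl (backgrounds 4.81%, 0.447%, 3.8% and 8.35%), with medians of -3.92, -3.32, -3.20 and -4.79. *3-GT* was called in the opposite direction in every organ, by 1.20 in cotyledons, 1.39 in first leaf, 2.29 in hypocotyl (adjusted p = 8.3e-07, edgeR) and 0.84 in epicotyl, where 4.11%, 0.664%, 7.12% and 14.6% of all genes were called that way. Its fold change was thus smaller after 24 h than after 6 h, in 24WL libraries that were also taken at another time of day. The call of *3-GT* alone is no more than the background share in epicotyl and is close to it in hypocotyl. *RT* did not pass this test in cotyledons (0.44), first leaf (0.71) or hypocotyl (-0.59) and became lower in epicotyl (-0.92, adjusted p = 0.00643). *F3'5'H* in cotyledons was the remaining pair not called (-0.64, adjusted p = 0.19). The same contrast was also called lower in cotyledons for both tested leaf markers of the 4 listed, RBCS a (-0.47) and RBCS c (-0.58), and for the stem marker TKN2 in cotyledons (-0.98) and epicotyl (-0.76). The summed level of the leaf markers in cotyledons ran from 25300 to 29200 CPM in 24WL and from 15900 to 19600 CPM in 24FR at 24 h, and TKN2 in epicotyl from 25.7 to 30.3 and from 13.8 to 17.4 CPM. Their part in the result was not tested.

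The organs were compared within the stem and within the leaves. At 3 h no late gene differed in its light response between epicotyl and hypocotyl by edgeR (4 of 10 at an unadjusted p under 0.05, and none by DESeq2 or limma; background 0.12% lower and 0.0515% higher). At 6 h the epicotyl response was lower for *F3'5'H* by -1.31 (adjusted p = 0.00724, edgeR) and higher, that is weaker, for *3-GT* by 1.69 and *RT* by 1.86 (background 0.687% and 0.504%). At 24 h it was lower for *DFR* (-4.40), *5-GT* (-4.60), *OMT* (-4.89) and *GST* (-3.26) and weaker for *RT* (1.53), where 11.2% of all genes were called lower and 14.2% higher. RBCS a (-0.45) and TKN2 (-0.70) were among those called lower, and their part was not tested.

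The remaining level in the hypocotyl shows this contrast. *DFR* in 24FR hypocotyl at 24 h stood at 2.12, 4.49 and 2.08 CPM, against 179, 183 and 260 CPM in 24WL, so that 1.4% was left (71.4-fold, 62.9 to 81.3), compared with 0.0647% in epicotyl. *RT* stood at 3.41, 6.39 and 4.44 CPM in 24FR hypocotyl and at 26.4, 28.2 and 26.3 CPM in 24FR epicotyl. These levels of *RT* did not overlap between the organs in 24FR. For *ANS* the stem organs were closer, with 0.188% left in hypocotyl.

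First leaf and cotyledons differed for fewer genes. None was called at 3 h (2 at an unadjusted p under 0.05, none by DESeq2 or limma; background 0.143% and 0.0172%) or at 6 h (8 at an unadjusted p under 0.05, 1 by DESeq2 and none by limma; background 0.137% and 0.0572%). At 24 h *F3'5'H* was lower in first leaf by -1.67 (SE 0.32, adjusted p = 0.00123, edgeR) and *RT* was weaker by 1.24 (SE 0.27, adjusted p = 0.00563), against 0.83% and 0.916% of all genes. For genes near the floor the SE of this difference reached 1.31, so that a difference of the size found for *RT* was not detectable there.

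In the mutants the question was how far the 6 h response needs the PIFs mutated here. Other tomato PIF genes were not targeted, so what is left in *slpifq* is not a response without any PIF. Both mutants still lowered the late genes in 24FR. In WT 10, 10, 10 and 9 genes were called lower in cotyledons, first leaf, hypocotyl and epicotyl (medians -3.47, -4.13, -2.93 and -3.32 in the genotype table, backgrounds 1.33%, 0.991%, 2.15% and 1.08%). In *slpif8a* the counts were again 10, 10, 10 and 9, with smaller medians of -1.85, -2.46, -1.63 and -1.83 (backgrounds 0.63%, 0.206%, 1.05% and 0.624%). In *slpifq* they were 10, 10, 7 and 7, with medians of -2.04, -1.69, -1.16 and -1.17 (backgrounds 0.578%, 0.126%, 0.435% and 0.149%). The pairs not called in *slpifq* were *DFR* (-0.84), *5-GT* (-0.84) and *OMT* (-0.93) in hypocotyl and *3-GT* (-0.98), *PAT* (-0.85) and *RT* (-0.47) in epicotyl. Without 1 library the hypocotyl count of *slpifq* ran from 6 to 10.

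**Figure D4:**
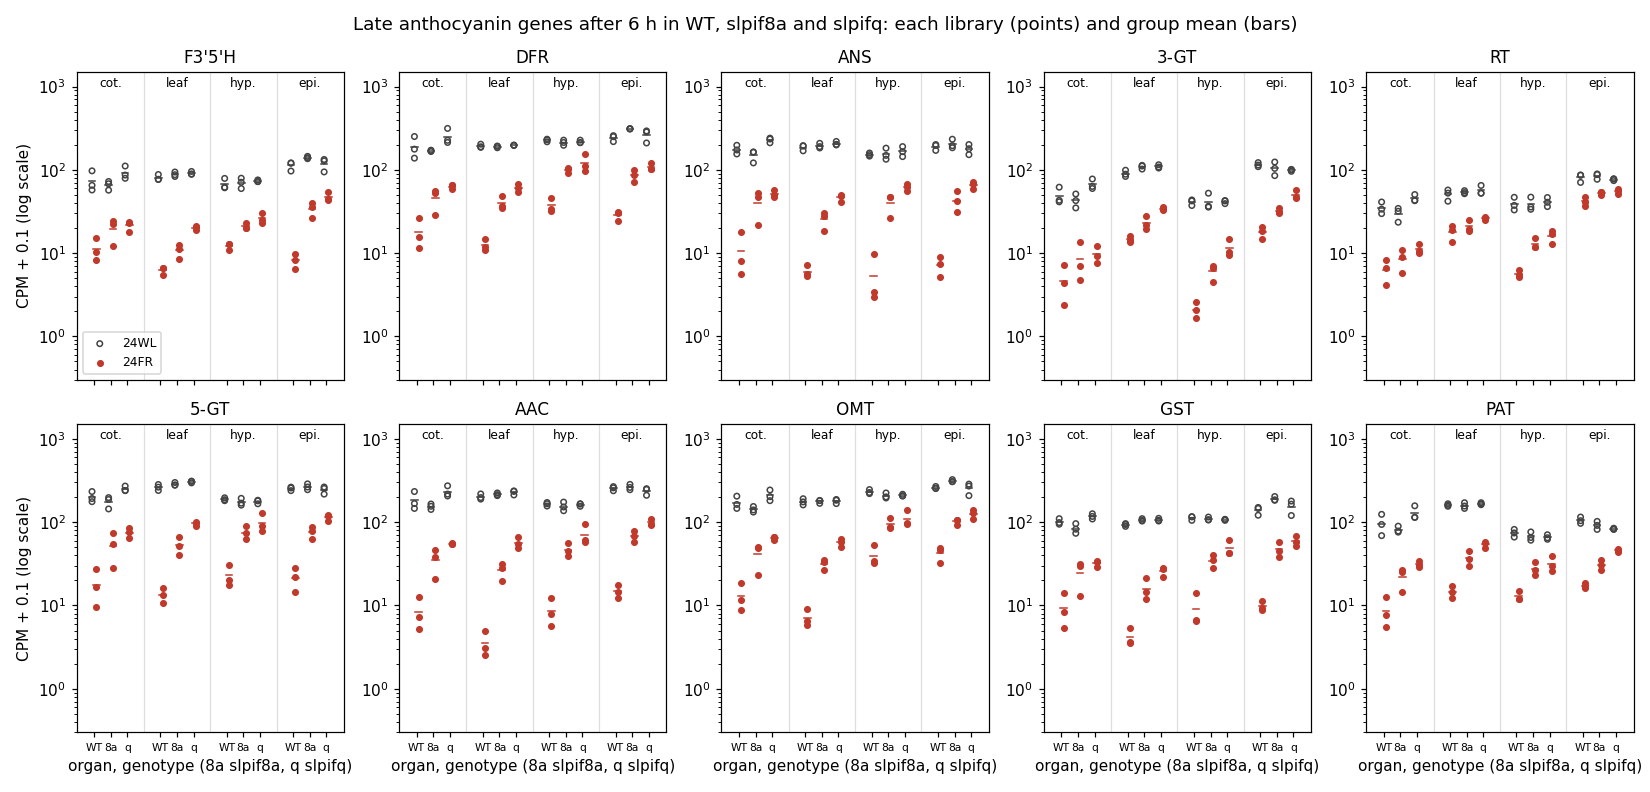
Level of each late gene (CPM + 0.1, log scale) after 6 h in WT, slpif8a (8a) and slpifq (q), by organ. Points are single libraries of 24WL (open) and 24FR (filled), short lines are means of 3. The 24WL points of each mutant overlap those of WT for most genes and organs, but in cotyledons those of slpifq lie above those of slpif8a. The 24FR means of the mutants lie above those of WT, as for AAC in first leaf (WT 2.44 to 4.78, slpif8a 19.8 to 31.4, slpifq 49.2 to 65.6 CPM).

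In 24WL no difference of a mutant from WT was called. By edgeR none of the 40 pairs was called for *slpif8a* against WT, with log2 fold changes of -0.27 to 0.45 and a smallest adjusted p of 0.17, and 1 pair, in epicotyl, had an unadjusted p under 0.05. None was called for *slpifq* against WT, with -0.34 to 0.45 and a smallest adjusted p of 0.349, and 4 pairs, all in cotyledons, had an unadjusted p under 0.05. DESeq2 and limma also called none. Of all tested genes 0.0745%, 0.0859%, 0.0859% and 0.475% were called in *slpif8a*, in either direction, and 0.103%, 0.0802%, 0.137% and 0.235% in *slpifq*. *DFR* in first leaf is among the pairs with the least difference, with 189, 186 and 203 CPM in WT, 184, 192 and 192 CPM in the single mutant and 196, 198 and 197 CPM in *slpifq*. In cotyledons all 10 genes were lower in *slpif8a* (-0.27 to -0.16) and higher in *slpifq* (0.22 to 0.45). Every *slpifq* library was above every WT library for 3 genes in cotyledons and 5 in first leaf (backgrounds 4.62% and 7.45%). They were below for 1 in hypocotyl and 2 in epicotyl (10.1% and 10.4%). Those of *slpif8a* were above WT for 2 in first leaf and 4 in epicotyl (10.9% and 19.7%).

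In 24FR the mutants kept more of the transcripts. For *slpif8a* 7 genes were called higher than WT in cotyledons, 7 in first leaf, 9 in hypocotyl and 7 in epicotyl, with medians of 1.39, 1.81, 1.50 and 1.71 (backgrounds 0.218%, 0.0974%, 0.424% and 0.275%). For *slpifq* the counts were 8, 9, 10 and 9, with medians of 1.84, 2.47, 1.91 and 2.18 (backgrounds 1.35%, 0.367%, 1.14% and 0.567%). None was called lower, where 0.137%, 0.0573%, 0.0916% and 0.126% of all genes were in *slpif8a* and 0.659%, 0.298%, 0.939% and 0.458% in *slpifq*. All 10 genes of *slpifq* had every 24FR library above every WT library in all 4 organs, where 9.48%, 7.73%, 14.6% and 14.1% of all genes did. For *slpif8a* this held for 6 genes in cotyledons, 9 in first leaf and 10 in each stem organ (backgrounds 7.47%, 7.93%, 10.8% and 14.2%). Fitted on the compared groups alone, the *slpif8a* counts were 0 in cotyledons and 0 in hypocotyl, and the *slpifq* count in cotyledons was 2.

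The largest difference from WT was that of the acyltransferase gene in *slpifq* and that of *ANS* in *slpif8a*. *AAC* in 24FR first leaf stood at 3.01, 4.78 and 2.44 CPM in WT, 31.4, 27.9 and 19.8 CPM in the single mutant and 54.4, 49.2 and 65.6 CPM in *slpifq*. The 3 genotypes did not overlap, and the mutants were higher than WT by 2.93 (SE 0.27, adjusted p = 7.2e-11, edgeR) and 4.03 (SE 0.27, adjusted p = 8.18e-16). *ANS* in 24FR hypocotyl stood at 9.56, 3.3 and 2.86 CPM in WT, 47, 46.6 and 26 CPM in the single mutant and 61.3, 56.3 and 68.1 CPM in *slpifq*. WT was lowest and *slpifq* highest in every library, with differences from WT of 2.94 and 3.58.

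Whether the difference of *F3'5'H* from WT in 24FR varied between organs was not tested. In epicotyl it stood at 9.68, 8.19 and 6.34 CPM in 24FR WT, 40.1, 36.1 and 26.4 CPM in the single mutant and 44.9, 43.4 and 54.5 CPM in *slpifq*, which is 2.08 and 2.55 above WT. In first leaf the difference of *slpif8a* (0.78, adjusted p = 0.0852, edgeR) did not pass the test. In cotyledons (0.79) and hypocotyl (0.80) it passed the test but stayed under the fold threshold, as did that of *slpifq* in cotyledons (0.94). In first leaf (1.71) and hypocotyl (1.12) *slpifq* was called higher.

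The glycosyltransferase genes *RT*, in both mutants, and *3-GT*, in *slpif8a* only, were called in fewer organs than most. *RT* in 24FR epicotyl stood at 47.1, 41.5 and 36.4 CPM in WT, 54.1, 54.8 and 49.1 CPM in the single mutant and 51.1, 56.2 and 58.3 CPM in *slpifq*. Its differences of 0.34 (adjusted p = 0.252, edgeR) and 0.41 (adjusted p = 0.148) did not pass the test, and it was called in the hypocotyl alone in both mutants (1.21 and 1.51). *3-GT* in 24FR hypocotyl rose from 2.46, 1.96 and 1.58 CPM in WT to 6.84, 6.6 and 4.43 CPM in the single mutant and 9.29, 10.3 and 14.7 CPM in *slpifq* (1.59 and 2.52). In *slpif8a* it was not called in cotyledons (0.84), first leaf (0.65) or epicotyl (0.83). In *slpifq* it was called higher in these organs too (1.06, 1.21 and 1.49). *PAT* in epicotyl (0.83) completes the pairs of *slpif8a* that were not called.

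The response itself was then compared with that of WT. A weaker response was called (adjusted p under 0.05) in *slpif8a* for 7 genes in cotyledons, 7 in first leaf, 8 in hypocotyl and 6 in epicotyl, with medians of 1.64, 1.72, 1.53 and 1.49 (backgrounds 0.143%, 0.0401%, 0.0687% and 0.063%). In *slpifq* it was called for 7, 8, 10 and 9 genes, with medians of 1.51, 2.35, 1.98 and 2.13 (backgrounds 2.12%, 0.149%, 0.538% and 0.275%). *AAC* had the largest values in first leaf, with 2.83 (SE 0.35, adjusted p = 6.91e-07, edgeR) and 3.85 (SE 0.35, adjusted p = 2.61e-11). *DFR*, *ANS* and *AAC* were called in every organ in both mutants, but the call of *DFR* in epicotyl of *slpif8a* (adjusted p = 0.0488, edgeR) was lost in 10 of 12 fits without 1 library. *RT* was called in hypocotyl alone. In cotyledons of *slpifq* the xylem marker CESA a was called the same way (0.99), with a summed xylem marker level of 494 to 842 CPM in 24FR against 529 to 654 CPM in WT (24WL 457 to 540 and 456 to 553 CPM), and its part was not tested. Fitted on the compared groups alone, the calls were 0 in cotyledons in both mutants and 0 in hypocotyl of *slpif8a*, and the cause was not tested. Without 1 library the count of *slpif8a* ran from 4 to 7 in first leaf and from 5 to 9 in hypocotyl.

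Given as a share of the WT log2 response, *slpif8a* kept a median of 0.526 in cotyledons, 0.599 in first leaf, 0.446 in hypocotyl and 0.568 in epicotyl. For *slpifq* the medians were 0.564, 0.443, 0.344 and 0.354. In first leaf, hypocotyl and epicotyl the response size had the order WT, *slpif8a*, *slpifq* for all 10 genes, and in cotyledons for 3. The response of *slpifq* minus that of *slpif8a* was called for none of the 40 pairs (-0.42 to 1.02; 0, 7, 1 and 9 genes at an unadjusted p under 0.05 in cotyledons, first leaf, hypocotyl and epicotyl, and none by DESeq2 or limma; backgrounds 2.61%, 0.0115%, 0.103% and 0.0974%).

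In 24FR the direct comparison of the mutants called 1 gene, *AAC* in first leaf (1.10 higher in *slpifq*, SE 0.23, adjusted p = 0.00846, edgeR; background 0.0515%), and this call was lost without replicate 3 of the first leaf 24FR libraries of either mutant. In cotyledons, hypocotyl and epicotyl none was called by edgeR, DESeq2 or limma, with 5, 4 and 6 genes at an unadjusted p under 0.05 (backgrounds 1.08%, 0.493% and 0.338%). In first leaf *F3'5'H* (0.92, adjusted p = 0.0154, edgeR) and *OMT* (0.86, adjusted p = 0.0296) passed the adjusted p but not the fold threshold. So did *3-GT* in hypocotyl (0.94, adjusted p = 0.0242) and *OMT* in cotyledons (0.66, adjusted p = 0.0373). All 10 genes had every *slpifq* library above every *slpif8a* library in 24FR first leaf, as did 5.49% of all genes. In 24WL none was called (by DESeq2 and limma also none; backgrounds 0.166%, 0.0344%, 0.0745% and 0.063% over the 4 organs). All 10 genes were 0.48 to 0.66 higher in *slpifq* than in *slpif8a* in 24WL cotyledons with no overlap, however, where 12.3% of all genes were higher without overlap. All 10 had an unadjusted p under 0.05 there (none in the other organs), and the smallest adjusted p was 0.0367 by edgeR.

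In plants kept in 24WL the levels also varied between the sampling times. *3-GT* was lower at ZT8 than at ZT2 of the next day in all 4 organs, by -1.47 in cotyledons, -1.48 in first leaf, -1.05 in hypocotyl and -1.12 in epicotyl (backgrounds 8.84%, 7.74%, 6.41% and 4.55% lower). In first leaf it read 140, 141 and 170 CPM at ZT5, 80, 76.1 and 90.5 CPM at ZT8 and 230, 232 and 225 CPM at ZT2. The 3 times did not overlap. *RT* in first leaf (-1.10) and *F3'5'H* in hypocotyl (-1.14) were also lower at ZT8 than at ZT2. The hypocotyl count of 2 ran from 0 to 2 without 1 library. In cotyledons and epicotyl *3-GT* was the only gene called, which is close to the background share.

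**Figure D5:**
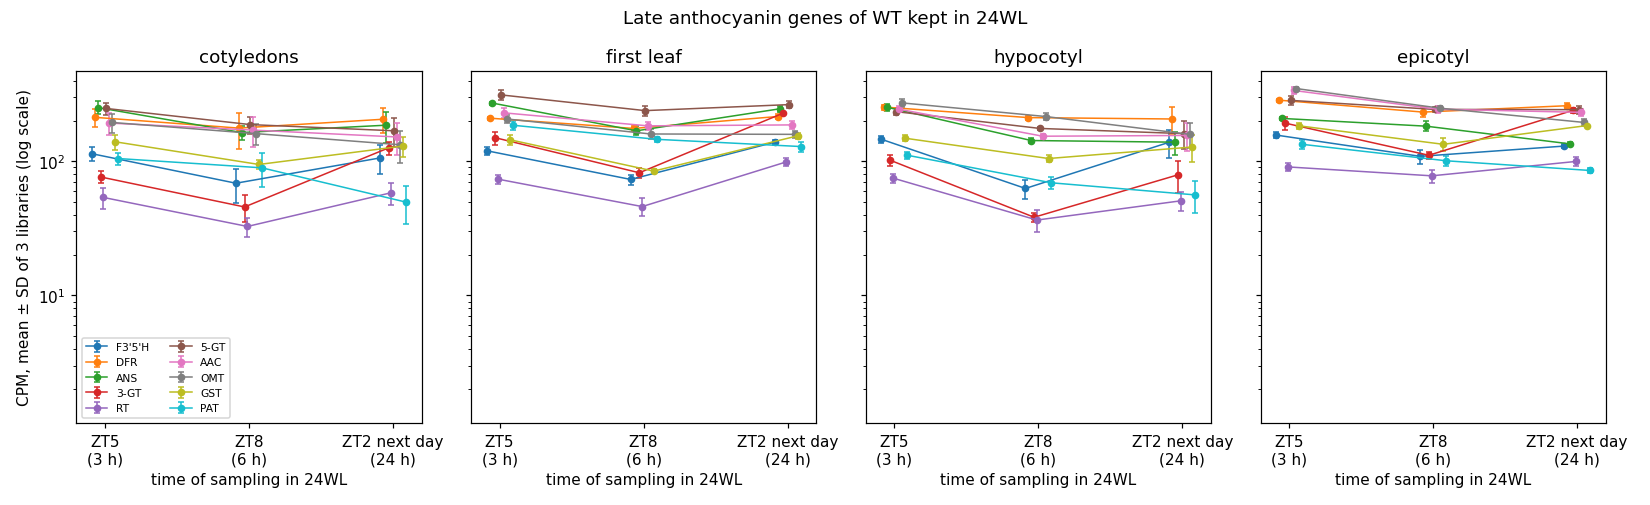
Level of the late genes (CPM, log scale) in WT kept in 24WL, by organ, at ZT5, ZT8 and ZT2 of the next day. Points are means and bars the SD of 3 libraries. The line of 3-GT dips at ZT8 in every organ, with 230, 232 and 225 CPM at ZT2 and 80, 76.1 and 90.5 CPM at ZT8 in first leaf.

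Between ZT5 and ZT8 the hypocotyl alone had calls, *3-GT* (-1.41, SE 0.19, adjusted p = 4.59e-08, edgeR), *F3'5'H* (-1.22) and *RT* (-1.04), all lower at ZT8 (background 2.45%). In cotyledons, first leaf and epicotyl none was called by edgeR, DESeq2 or limma, with 5, 5 and 6 genes at an unadjusted p under 0.05 (backgrounds 9.59%, 7.87% and 2.49%). Some of these passed the adjusted p but not the fold threshold. Among them was *3-GT* in cotyledons (-0.74, adjusted p = 0.00124, edgeR), first leaf (-0.87, adjusted p = 0.000149) and epicotyl (-0.8, adjusted p = 0.001). Every gene was nevertheless below its ZT5 range at ZT8 in first leaf, hypocotyl and epicotyl, and 6 were in cotyledons, where 24.9%, 22%, 19.8% and 25.2% of all genes were. Between ZT5 and ZT2 the permease gene *PAT* in cotyledons was called, higher at ZT5 by 1.07 (102, 95.3 and 117 CPM against 35.3, 47.5 and 66.3 CPM; background 6%), and the call was lost without replicate 3 at ZT5 or replicate 1 at ZT2. *PAT* was the only gene called there, which is close to the background share. TKN2 was also higher at ZT5 in cotyledons, against ZT2 (1.67) and against ZT8 (-1.13 for ZT8 minus ZT5), and its part was not tested. In first leaf, hypocotyl and epicotyl edgeR and DESeq2 called none, with 3, 6 and 4 genes at an unadjusted p under 0.05 (backgrounds 5.49%, 6.23% and 3.14%), and limma called 1 in hypocotyl. The smallest adjusted p by edgeR was 0.00831, 1.86e-05 and 0.000449, so some genes passed the test under the fold threshold (-0.61 to 0.99). The times of day coincide with hours in the treatment, so the change of the light response between 6 h and 24 h and the time of sampling cannot be told apart. ZT2 was sampled on the next day, so time of day and plant age cannot be told apart in 24WL either.

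In 24WL plants 3 pairs of organs were compared, and cotyledons were not set against the stem organs. The epicotyl was called higher than the hypocotyl in *3-GT* (1.53) and *RT* (1.10) at 6 h and in *3-GT* (1.60) at 24 h, where 7.62% and 6.71% of all genes were higher, and at 3 h in none by edgeR, DESeq2 or limma (2 at an unadjusted p under 0.05, background 8.29%). At 3 h *3-GT* passed the adjusted p but not the fold threshold (0.92, adjusted p = 3.03e-05, edgeR). First leaf was called higher than cotyledons in *PAT* at 24 h (1.37, background 10.1%), and at 3 h and 6 h in none by edgeR or limma (3 genes at an unadjusted p under 0.05 at each time, and 1 called by DESeq2 at 3 h; backgrounds 8.79% and 9.2%). At both of these times *3-GT*, *RT* and *PAT* passed edgeR's adjusted p under the fold threshold (0.45 to 0.97). The call of *PAT* alone is no more than the background share, and that of *3-GT* alone in epicotyl at 24 h is close to its own. Epicotyl and first leaf were called different in none of the 30 pairs by edgeR, DESeq2 or limma, with 5, 7 and 2 genes at an unadjusted p under 0.05 at 3, 6 and 24 h (backgrounds 32.2%, 29.2% and 30.4%). Several of the pairs passed the adjusted p but not the fold threshold. Among them were *OMT* at 3 h (0.75, adjusted p = 0.000524, edgeR), *RT* at 6 h (0.76, adjusted p = 0.00024) and *ANS* at 24 h (-0.88, adjusted p = 0.000819). Scaled by library totals alone, 18 of those 30 pairs were called, with the median of all genes shifted by 0.63 to 0.81. The organs also differed in their markers, since the summed xylem markers ran from 1040 to 1190 CPM in hypocotyl and 466 to 622 CPM in epicotyl, and the summed leaf markers from 30900 to 42300 CPM in first leaf and 15400 to 29200 CPM in cotyledons, and the part of this in the calls was not tested.

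The late genes varied together. Over the 24 group means of log2 CPM, the correlation between pairs of late genes had a median r of 0.926 in the time course (0.324 to 0.995 over 45 pairs) and 0.925 among the genotypes (0.699 to 0.988). Most of these points share the contrast of the lights. Within groups, where light, organ and time are the same, the deviations of the 72 libraries still had a median r of 0.622 and 0.789. In 6 of the 24 time-course groups and 4 of the 24 genotype groups a single library was the highest of the 3 for all 10 genes. A set of libraries with a shared deviation, such as replicate 3 of 24FR hypocotyl at 3 h for *DFR* and *OMT*, therefore moves many of the genes at once, and the 10 genes are not 10 independent measurements.

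Other genes were ranked by their likeness to the mean profile of the late genes, as the mean r over the 24 group means of the 2 tables among 17184 genes. *AN1* (Solyc09g065100), the bHLH regulator of the pathway, came first of the genes outside the set at 0.969, followed by Solyc04g078140, annotated as a cytochrome b5, at 0.968. The chalcone synthase genes *CHS2* (0.883) and *CHS1* (0.804), *CHI* (0.771) and *F3H* (0.765) were also among the 10 most alike. The others were Solyc01g091320, annotated as a methylsterol monooxygenase (0.827), Solyc03g120620, a homeobox-leucine zipper gene (0.795), Solyc09g072710, a phospholipid-sterol O-acyltransferase (0.777), and Solyc02g069490, a Delta(24)-sterol reductase (0.761). Of the late genes themselves, *AAC* (0.991) and *GST* (0.986) were closest to the mean profile, which includes them, and *RT* (0.749) and *3-GT* (0.707) farthest.

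The early flavonoid genes act upstream of the late ones. Of 7 such genes, 5 were called lower at 6 h in each organ of WT, with medians of -1.74 in cotyledons, -1.19 in first leaf, -1.80 in hypocotyl and -1.71 in epicotyl. At 3 h the counts were 0, 1, 0 and 1, and at 24 h 4, 3, 5 and 5. Of all tested genes, 0.212% to 0.693% were called lower at 3 h, 1.21% to 2.47% at 6 h and 0.521% to 4.33% at 24 h. CHS1 (Solyc09g091510), a chalcone synthase gene of the first committed flavonoid step, had fold changes of -4.75, -2.07, -4.25 and -2.50 at 24 h. *F3'H* and *FLS*, which serve other flavonoids, were not called in any WT organ or time. In the mutants 5 early genes were called lower at 6 h in each organ of *slpif8a*, and 5, 3, 5 and 0 in *slpifq* (backgrounds 0.206% to 1.05% and 0.126% to 0.578%).

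Of 10 regulator genes, 8 were tested in the time course and 7 in the genotype table, and *ANT1* and *AN2-like* were too low in both. *AN1* was called lower in every WT organ and time. At 3 h its fold changes were -1.94 in cotyledons, -2.46 in first leaf, -1.0 in hypocotyl and -1.45 in epicotyl, and at 6 h they were -4.48, -4.79, -3.17 and -3.37. At 24 h it had no count in any 24FR cotyledon library, at least 136-fold lower. In first leaf its 24FR libraries held 0, 1 and 4 counts (0, 0.0464 and 0.195 CPM) against 20.3, 22.4 and 27.3 CPM in 24WL, and in hypocotyl and epicotyl it fell by 6.16 and 7.04. *AN2*, a MYB gene, was called lower in all 12 pairs of organ and time (-1.09 to -4.02). *HY5*, *JAF13* and *MYB12* were not called lower in any of them. In all, 2 to 5 regulators were called lower per organ and time, where 0.212% to 4.33% of all tested genes were.

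In 24FR *AN1* was higher than in WT in every organ, by 1.75, 1.77, 1.50 and 1.70 in *slpif8a* and by 2.44, 2.82, 1.93 and 2.05 in *slpifq*. *AN2* was called higher in *slpif8a* in hypocotyl (1.82) and epicotyl (1.63) and in *slpifq* in every organ (1.16, 1.27, 2.38 and 2.18). The weaker response of *AN1* was called in every organ in *slpifq* and in cotyledons alone in *slpif8a*. In 24WL *AN1* was called in neither mutant.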

How the data were processed

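PolyA RNA of 4 pooled seedlings a library was sequenced as stranded single-end reads. Per the submitters' processing notes the authors used CASAVA 1.8.2, STAR 2.7.9a, HTSeq 0.13.5 and edgeR 3.40.2. The deposited counts are unnormalized reads per gene on SL4.0, on the reverse strand, without reads that fit several places. The deposited signal tables hold CPM over effective library sizes, made by the authors from these counts. The 5 entries of each count table that name no gene (8.54% to 17% of its reads) were left out of totals and tests. Deposited fold changes of the authors were not used.

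Samples were grouped by GEO's labels. The tables were fitted separately with edgeR 4.0.16 in R 4.3.3, as a quasi-likelihood model with 1 mean a group, TMM factors, a filter of over 5 CPM in at least 3 libraries and Benjamini-Hochberg adjustment over all genes tested. An SE is the log2 fold change over the root of its F statistic. Calls needed a p under 0.05 after adjustment and a difference of more than 1 on the log2 scale, and differences between responses the adjusted p alone. Pooled ratios have exact 95% intervals from counts. Depth was 15905765 to 33913236 counts a library, and a count of 3 in a library was the floor. The fits were tested on simulated data with 200 changed genes. No 2 replicates were alike within sampling noise.

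The members and lists were chosen with earlier results of these data known. The named genes are the 10 late genes, 7 early flavonoid genes, 10 regulators and the 10 other genes with the highest mean of 2 Pearson correlations with the members' mean profile. Alternatives were edgeR's likelihood-ratio test, DESeq2 1.42.0 (size factors and Wald test), library totals, no filter and a filter of 1 CPM, limma 3.58.1 on the deposited CPM (pseudocount 1 or 0.1), the replicate number as a block, the libraries of 1 organ or the compared groups alone, and each library left out. No reference sequence carried the identifiers, and sequences are not shown here.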

Additional observations from a re-analysis of the deposited data

Results flagged for a closer look

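The light response of WT differed between times, by edgeR's quasi-likelihood test of the difference itself. From 3 h to 6 h it was called different for 10 of the 10 late genes in cotyledons, 8 in first leaf, 10 in hypocotyl and 9 in epicotyl, in each case as a deeper fall in 24FR (backgrounds 0.555%, 0.206%, 1.91% and 0.584% lower). From 6 h to 24 h it was called different for 8 genes in cotyledons (7 deeper, 1 shallower), 9 in first leaf (8 and 1), 9 in hypocotyl (8 and 1) and 10 in epicotyl (9 and 1), and the shallower gene was *3-GT* in each organ. Over all tested genes this difference was called lower for 4.81%, 0.447%, 3.8% and 8.35%, and higher for 4.11%, 0.664%, 7.12% and 14.6%.

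The response also differed between organs by the same kind of test. Between epicotyl and hypocotyl it was called different for 3 late genes at 6 h (*F3'5'H*, *3-GT* and *RT*) and for 5 at 24 h (*DFR*, *5-GT*, *OMT*, *GST* and *RT*). Of all tested genes, 0.687% were called lower and 0.504% higher at 6 h, and 11.2% lower and 14.2% higher at 24 h. Between first leaf and cotyledons it was called different for 2 at 24 h (*F3'5'H* and *RT*), against 0.83% of all genes lower and 0.916% higher.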

How the results depend on the processing

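Of 950 comparisons of a late gene, none reversed under any alternative. Against the reported calls, 945 were the same by the likelihood-ratio test, 947 with DESeq2 size factors, 943 by DESeq2's Wald test, 943 and 944 by limma with a pseudocount of 1 and 0.1, 946 without the filter, 949 with the 1 CPM filter, 923 with library totals, 910 with 1 organ alone and 884 with the compared groups alone. Of 7260 values without 1 library (a late gene in a comparison, with 1 library left out), 7102 were the same, 106 lost a call and 52 gained one. The cause of these changes was not tested. The replicate numbers did not pair the samples: of 12 pairs of groups, all correlations of deviations exceeded 0.1 in 1 (time course) and 2 (genotypes), and with the replicate block 947 of 950 calls were the same and 3 were gained. *slpif8a* against WT in 24FR went from 30 calls to 14 with the compared groups alone (29 to 32 without 1 library), its difference in response from 28 to 15, *slpifq* against *slpif8a* in 24FR from 1 to 0 (0 to 2 without 1 library), and their difference in response from 0 to 1 with 1 organ alone. ZT5 against ZT2 had 1 call, 2 without the filter and with limma (pseudocounts 1 and 0.1), and 0 to 3 without 1 library. Epicotyl against first leaf in 24WL went from 0 to 18 and epicotyl against hypocotyl from 3 to 5 with library totals, where the median of all genes moved by up to 0.81. First leaf against cotyledons in 24WL went from 1 to 2 with DESeq2 size factors, the Wald test, library totals, no filter, 1 organ or the compared groups alone (1 to 2 without 1 library), and their difference in response from 2 to 4 by the likelihood-ratio and Wald tests. Over all genes, the *slpifq* difference in response in cotyledons went from 880 calls to 1 with the compared groups alone. The calls of *DFR* in epicotyl of *slpif8a* (adjusted p = 0.0488, edgeR) and *F3'5'H* in hypocotyl of *slpifq* (adjusted p = 0.0409) were lost in 10 of 12 fits without 1 library. Depth limits the genes near the floor after 24 h, where 1 count is a large share of the level.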
